A study of Mus musculus with 9 samples.

Results

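The core circadian clock genes were followed in mouse subcutaneous fat: Arntl, Clock, Npas2, Per1, Per2, Per3, Cry1, Cry2, Nr1d1 and Nr1d2. The members were a listed set of 10 genes, taken by symbol, of 35071 genes to which the deposited transcripts could be summed. All 10 passed the filter on low counts, among 17968 genes tested. The animals were C57BL/6 mice aged 24 weeks, with 3 libraries labelled WT, 3 labelled Hete KO and 3 labelled Homo KO, the knockout being that of AGO1 in endothelial cells and the WT animals littermates. The sources used here do not give the promoter that drives the deletion, nor the diet, sex, litter or cage of the animals. They do not give the time of day at which each animal was sampled either, so a difference in sampling time and a difference between genotypes cannot be told apart. Whole tissue was sequenced, so the clock transcripts came from every cell type in the fat and not from the endothelial cells alone, and in such samples fewer cells of a type and less RNA per cell cannot be told apart.

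The circadian clock of mammalian cells is a transcriptional feedback loop. ARNTL (also called BMAL1) pairs with CLOCK or its paralogue NPAS2 and activates genes through E-boxes, among them those of the PER and CRY repressors and of the nuclear receptors NR1D1 and NR1D2 (REV-ERB alpha and beta). PER and CRY proteins return to the nucleus and inhibit the activator pair, while NR1D1 and NR1D2 repress Arntl through ROR response elements. Arntl and Npas2 transcripts therefore peak in opposite phase to Nr1d1 and the Per genes in most tissues, fat included, Cry1 peaks later than the Per genes, and Clock varies little over the day.

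The promoters of 4 repressor genes are shown because they hold the elements by which the loop is thought to act. They are RefSeq windows of the 250 bases before the annotated start (GRCm38.p6, the assembly called mm10), printed 5′ to 3′ along the gene, with the E-box, the related CACGTT and the D-box in capitals. Of the 10 genes 9 were matched by symbol, and Per2 was not.
Nr1d1 (chr11:98775378-98775627, minus strand): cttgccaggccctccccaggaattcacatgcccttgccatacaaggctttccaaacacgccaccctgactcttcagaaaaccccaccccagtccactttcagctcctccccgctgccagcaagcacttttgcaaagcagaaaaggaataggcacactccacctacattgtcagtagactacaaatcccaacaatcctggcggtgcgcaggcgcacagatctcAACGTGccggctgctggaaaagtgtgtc
Per1 (chr11:69098699-69098948, plus strand): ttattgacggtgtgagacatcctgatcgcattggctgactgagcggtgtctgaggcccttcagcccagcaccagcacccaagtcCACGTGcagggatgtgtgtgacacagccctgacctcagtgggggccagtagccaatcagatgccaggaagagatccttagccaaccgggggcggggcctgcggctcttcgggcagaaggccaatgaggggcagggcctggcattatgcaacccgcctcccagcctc
Per3 (chr4:151044666-151044915, minus strand): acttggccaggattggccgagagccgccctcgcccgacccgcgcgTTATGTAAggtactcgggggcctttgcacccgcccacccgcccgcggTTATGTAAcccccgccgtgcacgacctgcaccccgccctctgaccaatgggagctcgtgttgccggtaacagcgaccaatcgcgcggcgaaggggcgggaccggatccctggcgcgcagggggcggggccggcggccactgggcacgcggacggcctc
Cry1 (chr10:85185055-85185304, minus strand): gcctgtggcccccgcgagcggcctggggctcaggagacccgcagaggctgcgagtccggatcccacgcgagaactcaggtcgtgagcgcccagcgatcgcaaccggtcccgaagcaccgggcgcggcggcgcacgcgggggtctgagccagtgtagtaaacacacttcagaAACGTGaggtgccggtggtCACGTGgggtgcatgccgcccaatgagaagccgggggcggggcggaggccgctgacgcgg
Both strands were searched for the E-box CACGTG, the related element CACGTT, the D-box (TTATGTAA or TTACGTAA), to which PAR-bZIP factors such as DBP and the repressor NFIL3 bind, the RORE, the cAMP response element TGACGTCA and its shorter form TGACG. The E-box was found in the printed window of Per1 (bases -166 to -161 from the start) and in Cry1 (bases -60 to -55). Another window of Per1, at a different annotated start, held none. CACGTT was found on the other strand, read as AACGTG in the printed sequence, in Nr1d1 (bases -28 to -23), in Cry1 (bases -79 to -74) and in Cry2. The D-box was found at 2 places in Per3, at bases -205 to -198 and -158 to -151. Over 32851 mouse promoter windows of the same length, 6.02% held CACGTG, 3.85% CACGTT, 0.931% a D-box and 0.332% a RORE. No RORE was found in the windows of the 9 matched genes. The 9 genes had 13 windows, and a gene was counted if any window matched. Counted so over 27025 genes, the shares were 6.86, 4.5, 1.1 and 0.396%. TGACGTCA was in 1.55% of windows (1.77% of genes) and in none of these genes, and TGACG in 17.8% of windows (19.8% of genes) and in Per1, Cry1 and Cry2. CACGTG and CACGTT do not overlap in any of the matches. A match gives letters only and does not show binding in these animals. Bases past the end of each window were not searched, so an element there, or cut by that end, would be missed. The lack of a RORE match therefore does not show that Arntl or another of these genes has no RORE.

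The libraries held from 20843427 to 28252001 estimated counts. Markers of adipocytes were present in all 9 libraries, 9 of 9 genes with counts in each, and held between 1.17 and 1.68% of the counts. Endothelial markers held between 0.0641 and 0.115%, again with all 10 genes detected in every library. The 18 skeletal muscle markers were all detected in every library and held 3.43, 2.65 and 8.20% of the counts in WT 1, WT 2 and Hete KO 2, against at most 0.413% in the other 6. The 24 liver markers held 0.145 and 0.136% in WT 2 and WT 3 and at most 0.0219% in the others. WT 1, WT 2 and Hete KO 2, each above 1% in muscle markers, are called the high-muscle libraries, and WT 2 and WT 3, each above 0.1% in liver markers, the high-liver libraries. Fits without each set, and with both marker shares as covariates, are given beside results that they turn or move by over 1.5 times. The targeted gene Ago1 measured 25.96, 18.75 and 15.81 TPM (WT 1, 2, 3), then 17.58, 18.45 and 17.97 (Hete KO 1, 2, 3), then 20.42, 17.87 and 7.636 (Homo KO 1, 2, 3). In CPM (counts scaled to library size) the KO libraries, at 25.75 to 62.24, all lay below the WT libraries, at 63.39 to 69.95. Over all genes, 12.4% had no overlap between both KO groups and WT. Homo KO 3 was lowest, and the log2 fold change against WT was -0.43 in Homo KO (edgeR adjusted p = 0.441) and -0.21 in Hete KO (edgeR adjusted p = 0.699). In whole fat, which holds Ago1 transcripts of every cell type, this level is no check of the endothelial deletion.

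Levels were compared between genes in TPM, which is scaled to transcript length and library total. Nr1d2 (60.1 ± 10.7 TPM, mean and SD over 9 libraries), Nr1d1 (59.5 ± 19.5) and Per3 (55.6 ± 18.5) stood highest. Cry2 (44.6 ± 5.44) and Clock (42.5 ± 9.38) followed, and none of these 5 differed from its neighbour by more than the larger of their SDs. Below them came Per1 (28.6 ± 7.37), Per2 (15.5 ± 4.64), Cry1 (5.17 ± 1.27) and Arntl (3.16 ± 1.54), each apart from the next by more than either SD. Npas2 was lowest, at 0.427 ± 0.361 TPM, and rested on between 5 and 27 estimated counts per library. The transcript of Arntl, the activator at the head of the loop, was thus among the scarcest of the set, with between 39 and 257 estimated counts per library.

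The members also varied to different degrees between mice of the same label. The SD of log2 CPM (counts scaled to library size) within groups was 0.71 for Arntl, 0.69 for Npas2, 0.46 for Per2, 0.42 for Per3 and 0.37 for Nr1d1. It was 0.34 for Clock, 0.29 for Per1, 0.28 for Cry1, 0.24 for Nr1d2 and 0.17 for Cry2, against a median of 0.24 over 15648 genes of at least 1 CPM. Arntl varied within groups more than 93.5% of those genes, while Cry2 varied more than 29.0% of them. All members but Nr1d2 and Cry2 thus spread more between animals of 1 label than the median gene, with Nr1d2 near the median and Cry2 below it. Arntl and Npas2, which spread most, were also the lowest in TPM, and whether low counts widened their spread was not tested.

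**Figure D1:**
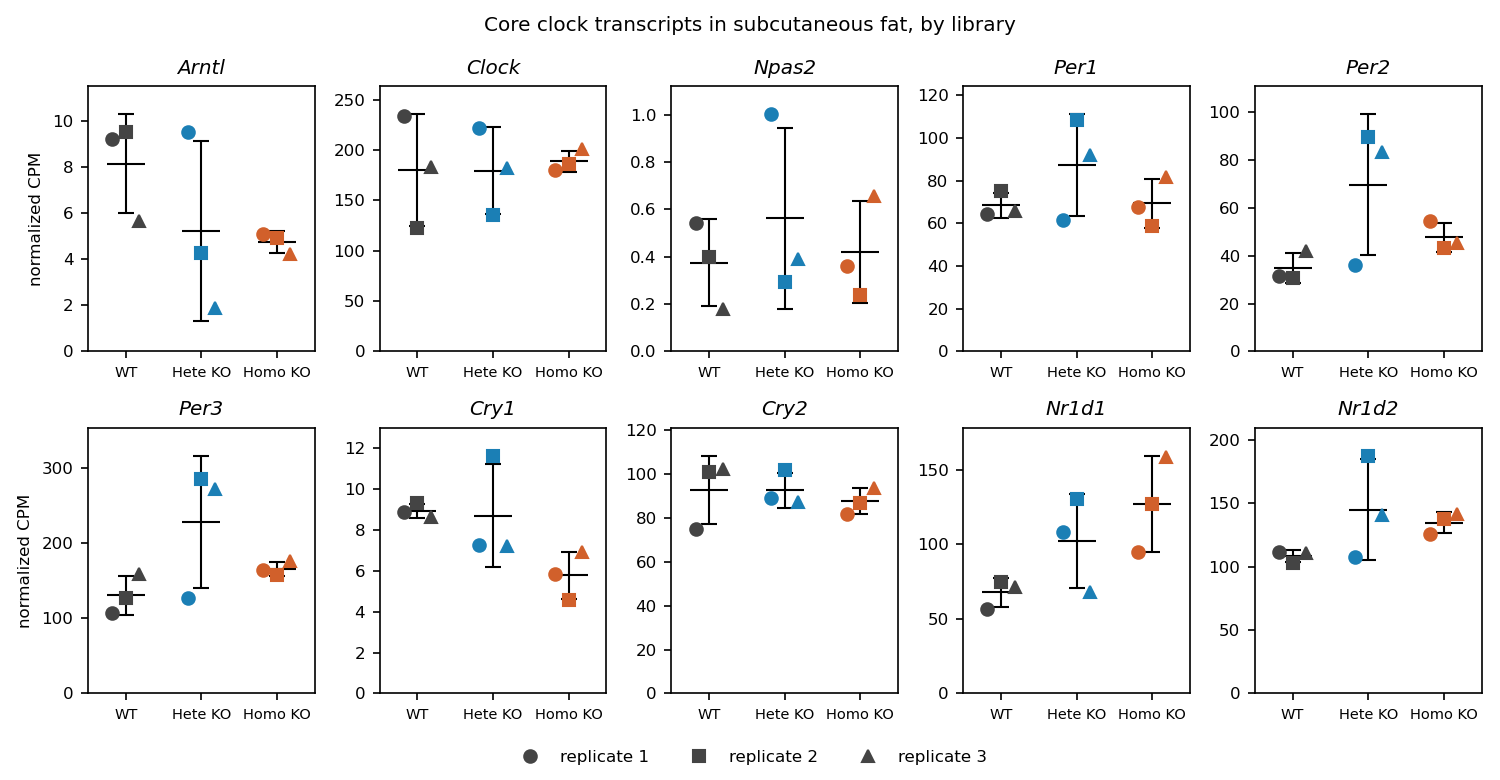
Normalized CPM (vertical axis, from 0) of the 10 clock genes in the 3 groups (horizontal axis), with 1 symbol per library, and the mean and SD of each group as a bar. Hete KO 1 lies near the WT libraries for Arntl, Per2 and Per3, while Hete KO 2 and Hete KO 3 lie far above it for Per2 and Per3.

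Among the activators, Arntl (mm10, chr7:113207465-113314126, plus strand) measured 9.23, 9.54 and 5.67 normalized CPM (WT 1, 2, 3), then 9.53, 4.26 and 1.90 (Hete KO 1, 2, 3), then 5.12, 4.94 and 4.23 (Homo KO 1, 2, 3). All Homo KO libraries lay below all WT libraries, and the Hete KO group spanned the whole range, from a library as high as the highest WT to one at 39 counts. Group means were 8.15 ± 2.15 (WT mean), 5.23 ± 3.91 (Hete KO mean) and 4.76 ± 0.470 (Homo KO mean) (SD, n = 3 each). The log2 fold change from WT was -0.77 in Homo KO (SE 0.469, 95% interval -1.82 to 0.27, edgeR adjusted p = 0.435) and -0.63 in Hete KO (SE 0.467, adjusted p = 0.471), so neither passed the test. The value in Hete KO rested on single libraries, with -1.37 without Hete KO 1 and -0.22 without Hete KO 3. Without the 3 high-muscle libraries, which leaves WT 3 as the one WT library, the log2 fold changes were -0.25 in Homo KO and 0.03 in Hete KO, and with the covariates -0.51 in Homo KO.

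Clock, the usual partner of ARNTL, was near the same mean in the 3 groups, with 180 ± 55.6 CPM (WT mean), 179.5 ± 43.1 (Hete KO mean) and 189 ± 10.4 (Homo KO mean). Single libraries ran from 122.8 CPM in WT 2 to 234 in WT 1, and the groups overlapped. The 95% interval of its log2 fold change was -0.45 to 0.59 in Homo KO and -0.52 to 0.51 in Hete KO against WT. In Homo KO its log2 fold change of 0.07 turned to -0.31 without the high-liver libraries and to -0.58 with the covariates. Npas2 was between 0.178 CPM in WT 3 and 1.001 in Hete KO 1. At that depth a difference between groups was not detectable, with a 95% interval of -1.37 to 1.73 in Homo KO against WT.

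Nr1d1 (chr11:98767932-98775333, minus strand), the heme-binding repressor of Arntl, measured 57, 74.7 and 71.7 CPM (WT 1, 2, 3), then 108, 131 and 68.2 (Hete KO 1, 2, 3), then 94.6, 127 and 159 (Homo KO 1, 2, 3). All Homo KO libraries lay above all WT libraries, as did Hete KO 1 and Hete KO 2, but Hete KO 3 lay within the WT range. The means were 67.8 ± 9.48 CPM (WT mean), 102 ± 31.6 (Hete KO mean) and 127 ± 32.2 (Homo KO mean). The log2 fold change was 0.90 in Homo KO against WT (SE 0.248, 95% interval 0.35 to 1.46), with an edgeR p of 0.00461 that came to an adjusted p = 0.185 over all genes and did not pass. DESeq2 put the same difference at an adjusted p = 0.0106. In Hete KO against WT it was 0.59 (SE 0.247, edgeR adjusted p = 0.200), and with both KO groups set against WT 0.75 (SE 0.220, edgeR adjusted p = 0.0915, DESeq2 adjusted p = 0.00636). The log2 fold change in Homo KO against WT stayed between 0.72 and 1.09 when each library was left out in turn, and was 0.83 without the high-muscle libraries. That in Hete KO against WT ran from 0.37 to 0.84 over the single libraries left out, and was 0.31 without the high-muscle libraries. Nr1d1 overlaps 1075 bases of Thra, a thyroid hormone receptor gene on the other strand, and reads there cannot be told apart if counting ignored strand. Thra itself had a log2 fold change of 0.27 (edgeR adjusted p = 0.340) between Homo KO and WT.

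Nr1d2 (chr14:18204054-18239127, minus strand), its paralogue, measured 112, 103 and 111 CPM (WT 1, 2, 3), then 108, 187 and 141 (Hete KO 1, 2, 3), then 126, 137.5 and 142 (Homo KO 1, 2, 3). The WT libraries were close together and below every Homo KO library, while Hete KO 1 was among them. Its log2 fold change against WT was 0.31 in Homo KO (SE 0.172, edgeR adjusted p = 0.395) and 0.42 in Hete KO (SE 0.172, adjusted p = 0.196). The value in Hete KO was 0.19 without Hete KO 2, 0.62 without Hete KO 1 and 0.17 without the high-muscle libraries.

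Per2 (chr1:91415982-91459324, minus strand), a PER repressor, measured 31.4, 30.9 and 42.0 CPM (WT 1, 2, 3), then 36.0, 89.7 and 83.5 (Hete KO 1, 2, 3), then 54.7, 43.2 and 45.4 (Homo KO 1, 2, 3). Hete KO 2 and Hete KO 3 stood above all other libraries, Hete KO 1 lay inside the WT range, and all Homo KO libraries lay above the highest WT library. The means were 34.8 ± 6.25 CPM (WT mean), 69.7 ± 29.4 (Hete KO mean) and 47.7 ± 6.11 (Homo KO mean). Against WT the log2 fold change was 1.003 in Hete KO (SE 0.293, 95% interval 0.35 to 1.66, edgeR adjusted p = 0.104, DESeq2 adjusted p = 0.00621) and 0.46 in Homo KO (SE 0.292, edgeR adjusted p = 0.455).

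Per3 (chr4:151003652-151044665, minus strand), whose promoter holds the D-boxes shown above, encodes another PER protein. It measured 107, 127 and 159 CPM (WT 1, 2, 3), then 127, 285 and 272 (Hete KO 1, 2, 3), then 164, 157.5 and 177 (Homo KO 1, 2, 3). The pair of Hete KO libraries with the highest Per2 was also highest here, Hete KO 1 was level with WT 2, and WT 3 lay among the Homo KO libraries. Its log2 fold change against WT was 0.80 in Hete KO (SE 0.269, edgeR adjusted p = 0.131, DESeq2 adjusted p = 0.0198) and 0.34 in Homo KO (SE 0.267, edgeR adjusted p = 0.541). Per1, the PER gene that is also induced by glucocorticoids and cAMP, was at 68.4 ± 5.74 CPM (WT mean), 87.2 ± 23.8 (Hete KO mean) and 69.5 ± 11.5 (Homo KO mean), with overlapping groups. Its highest libraries were again Hete KO 2 and Hete KO 3, at 108 and 92.1 CPM.

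Leaving out 1 Hete KO library changed the calls of 3 repressor genes. Without Hete KO 1, Per2 passed in Hete KO against WT with a log2 fold change of 1.34 (edgeR adjusted p = 0.0123), Per3 with 1.11 (edgeR adjusted p = 0.0135) and Nr1d2 with 0.62 (edgeR adjusted p = 0.0432). Over all genes the count of calls then went from 75 to 958. With both KO groups against WT the same removal gave edgeR adjusted p = 0.0163 for Per2, 0.0237 for Per3 and 0.0494 for Nr1d2. With the 9 libraries left out in turn, the lowest log2 fold changes in Hete KO against WT were 0.77 for Per2 and 0.60 for Per3, and Hete KO 1 was the one library whose removal brought a clock gene past the threshold. The libraries with high Per2 and Per3 differed in muscle transcripts: the muscle markers held 8.20% of the counts in Hete KO 2 and 0.104% in Hete KO 3. WT 1 and WT 2, at 3.43 and 2.65%, had the lowest Per2. Without the high-muscle libraries the log2 fold changes in Hete KO against WT were 0.52 for Per2 and 0.34 for Per3, and those in Homo KO against WT 0.19 for Per2 and 0.07 for Per3. Without the high-liver libraries Per3 stood at 0.63 in Homo KO, and with the covariates at 0.54.

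The cryptochromes join PER proteins in repressing the activator pair. Cry1 (chr10:85131700-85185064, minus strand), the late-phase repressor with an E-box and the related element in its promoter, measured 8.90, 9.30 and 8.63 CPM (WT 1, 2, 3), then 7.27, 11.6 and 7.20 (Hete KO 1, 2, 3), then 5.84, 4.56 and 6.90 (Homo KO 1, 2, 3). Every Homo KO library lay below every WT and every Hete KO library. The log2 fold change was -0.63 in Homo KO against WT (SE 0.234, 95% interval -1.15 to -0.11, edgeR adjusted p = 0.244) and -0.59 in Homo KO against Hete KO (SE 0.234, edgeR adjusted p = 0.899). Neither passed, and in Hete KO against WT it was -0.04 (SE 0.231). With the covariates the Homo KO values were -0.32 against WT and -0.31 against Hete KO, and the latter was -0.33 without the high-muscle libraries and ran from -0.75 to -0.32 over the single libraries left out. Cry2 was level, at 92.6 ± 15.4 CPM (WT mean), 92.6 ± 7.90 (Hete KO mean) and 87.6 ± 5.94 (Homo KO mean), and its 95% interval in Homo KO against WT was -0.38 to 0.22. There its log2 fold change of -0.08 was 0.23 without the high-liver libraries, 0.17 with the covariates and -0.22 without the high-muscle libraries.

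**Figure D2:**
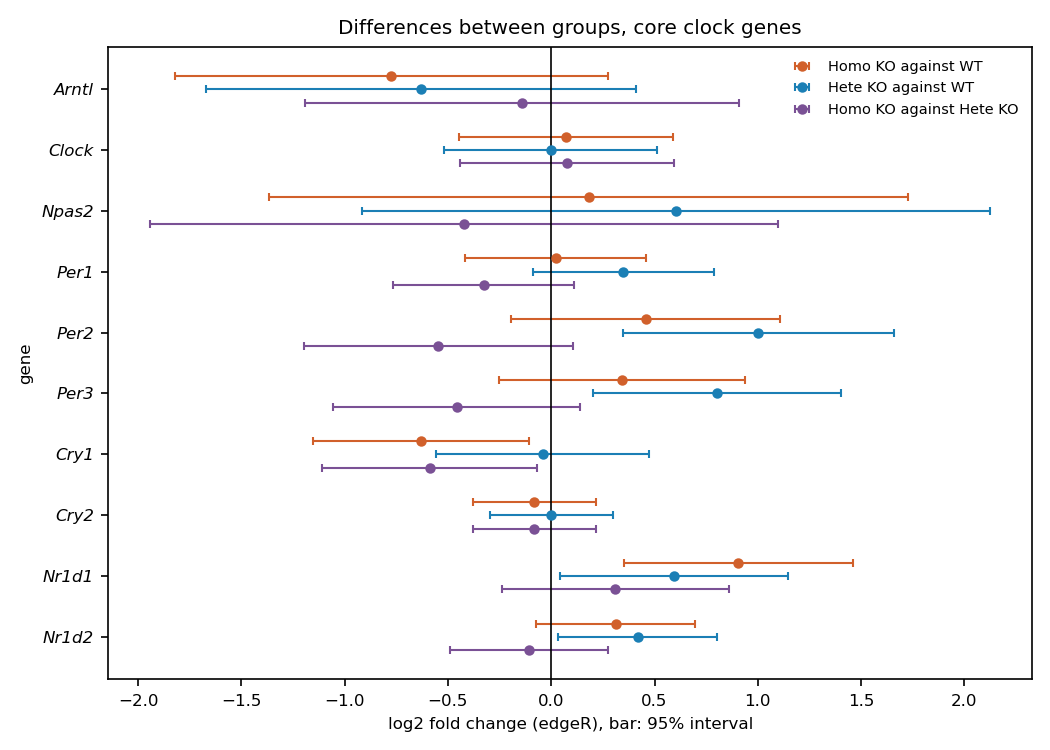
Log2 fold changes (horizontal axis) of the 10 clock genes (vertical axis) in 3 comparisons. The 95% intervals are approximate, derived from edgeR's F statistic before any adjustment for the number of genes. The intervals of Nr1d1 and Cry1 in Homo KO against WT, of Per2, Per3, Nr1d1 and Nr1d2 in Hete KO against WT, and of Cry1 in Homo KO against Hete KO, lie on 1 side of 0, while none of these differences passed after adjustment over all genes.

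Counted over the set, 0 of the 10 clock genes passed in Homo KO against WT by edgeR (0% of all genes did), while 2 had an unadjusted p under 0.05 (16.4% of all genes) and DESeq2 called 1 (3.47% of the genes it tested), Nr1d1. Groups did not overlap for 5 of the 10, namely Arntl, Per2, Cry1, Nr1d1 and Nr1d2, against 22.1% of all genes. Of the 10, 7 lay above 0 (49.3% of all genes did), and the median log2 fold change was 0.13, beside -0.01 over all genes. In Hete KO against WT edgeR called 0 clock genes (0.417% of all genes were called, 0.15% as higher and 0.267% as lower), 6 lay above 0 (51.4% of all genes), 4 had an unadjusted p under 0.05 (21.9% of all genes), and DESeq2 called Per2 and Per3 (9.08% of the genes it tested). No clock gene had groups without overlap there, against 24.7% of all genes. In Homo KO against Hete KO edgeR called 0 (0% of all genes), 1 had an unadjusted p under 0.05 (5.44% of all genes) and DESeq2 called 0 (0.0223%), with Cry1 as the 1 gene whose groups did not overlap (11.4% of all genes) and 2 genes above 0 (50.5%). With both KO groups against WT, edgeR called 0 clock genes (2.34% of all genes, 0.824% as higher and 1.52% as lower), 7 lay above 0 (49.5%), 0 had groups without overlap (12.4%), 4 had an unadjusted p under 0.05 (22.6%) and DESeq2 called Per2 and Nr1d1 (9.7%). These comparisons share libraries, so their counts are not independent of each other.

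The balance of activators and repressors was then read library by library, as a description with no test. The log2 ratio of Arntl to Nr1d1 TPM came to -2.88, -3.14 and -3.83 (WT 1, 2, 3), then -3.59, -5.07 and -5.28 (Hete KO 1, 2, 3), then -4.57, -4.92 and -5.30 (Homo KO 1, 2, 3). These ratios were taken on TPM + 0.1, on which Nr1d1 exceeded Arntl 7.37-fold in WT 1 and 39.3-fold in Homo KO 3. In plain TPM, Nr1d1 and Arntl stood at 40.02 and 0.9346 in Hete KO 3, and at 88.06 and 2.145 in Homo KO 3. Without the addition, Hete KO 3 rather than Homo KO 3 thus had the lowest ratio. Hete KO 1 fell among the WT libraries, and the other 5 KO libraries had lower ratios than all 4 of these. The highest ratios were those of WT 1 and WT 2, both high-muscle libraries. Without them WT 3, at -3.83, is the only WT library left, below Hete KO 1 and above the other 5 KO libraries. The group means were -3.29 ± 0.493 (WT mean), -4.65 ± 0.918 (Hete KO mean) and -4.93 ± 0.362 (Homo KO mean).

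Low ratios came with different levels of the single genes. In Homo KO 3 Nr1d1 was at its highest level of all libraries, 159 CPM, and Per2 was close to its mean over all 9. In Hete KO 3 Arntl was at its lowest, 1.48 below its mean on the log2 scale, Per2 stood 0.82 above its mean, and Nr1d1 was 0.46 below its own. Hete KO 2 had Per2, Per3, Nr1d1, Nr1d2, Per1 and Cry1 all above their means, by between 0.48 and 0.92. In a running clock Nr1d1 peaks before Per2, as textbook background; the sampling times that would place these libraries are not given here.

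**Figure D3:**
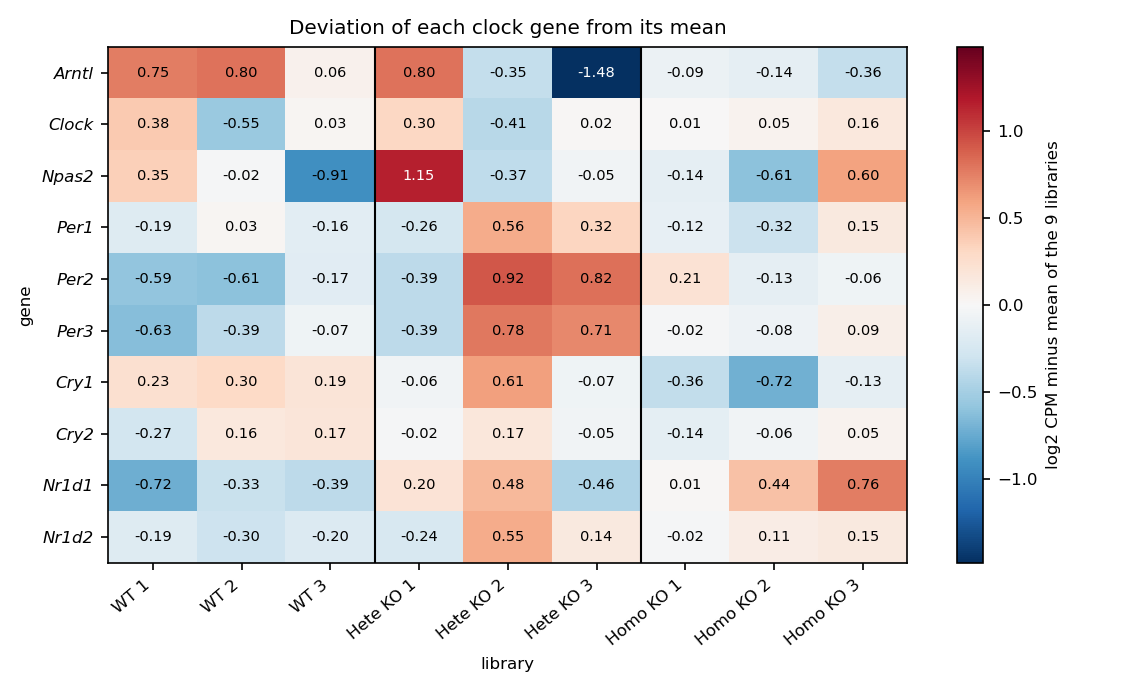
Deviation of each clock gene (rows) from its mean over the 9 libraries, in log2 CPM, for each library (columns, with lines between WT, Hete KO and Homo KO). Red is above and blue below the mean: Hete KO 2 and Hete KO 3 are red for Per2 (0.92 and 0.82) and Per3 (0.78 and 0.71), and Hete KO 3 is deep blue for Arntl (-1.48).

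A wider score, the mean log2(TPM + 0.1) of Arntl, Clock and Npas2 minus that of the 7 repressors, ordered the libraries partly otherwise. It came to -1.77, -3.08 and -2.79 (WT 1, 2, 3), then -2.02, -3.61 and -3.94 (Hete KO 1, 2, 3), then -3.27, -3.39 and -2.77 (Homo KO 1, 2, 3). WT 1 and Hete KO 1 were highest and Hete KO 2 and Hete KO 3 lowest, while Homo KO 3 ranked 3 of 9. The 3 activators enter alike in this score, and Npas2, which was at 0.712 TPM in Homo KO 3, carries few counts.

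**Figure D4:**
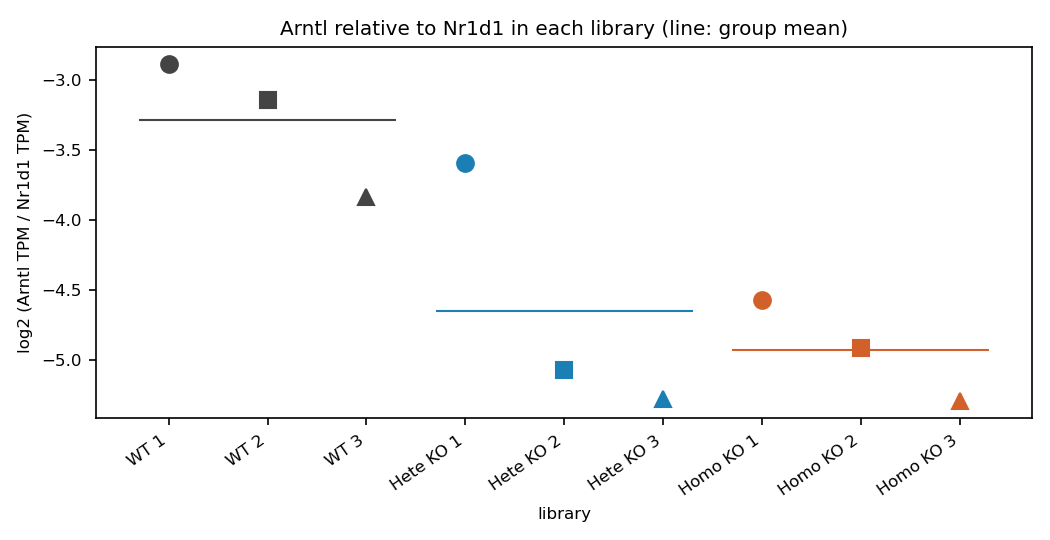
Log2 ratio of Arntl to Nr1d1, each as TPM + 0.1 (vertical axis), in each library (horizontal axis), with the group means as lines. Hete KO 1, at -3.59, lies between the WT libraries, and the other 5 KO libraries lie between -4.57 and -5.30.

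Across the 9 libraries, Arntl was set against each of the other 9 clock genes on log2 CPM, which gave 9 relations with two-sided exact permutation p values. With Per3 the Pearson r was -0.869 (exact p = 0.00109, adjusted p = 0.00729) and Spearman's rho -0.850 (exact p = 0.00607, adjusted p = 0.0182). With Per2 the r was -0.845 (exact p = 0.00162, adjusted p = 0.00729) and rho -0.867 (exact p = 0.00451, adjusted p = 0.0182). Low Arntl thus went with high Per2 and Per3, mouse by mouse. The adjustment covered these 9 relations only, and the share of all genes with such an r was not counted. The 5 most opposed of 14303 other genes, given below, had r between -0.970 and -0.924, so an r of this size is not particular to the Per genes. Without Hete KO 3 and WT 2, the libraries farthest from the Arntl median, r was -0.817 for Per3 and -0.733 for Per2, and on deviations from the group means it was -0.845 and -0.809. With Nr1d2, r was -0.665 (exact p = 0.0532, adjusted p = 0.160) and rho -0.917 (exact p = 0.00131, adjusted p = 0.0118), and r was -0.762 without the same libraries and -0.480 within groups. With Nr1d1, r was -0.162 (exact p = 0.692, adjusted p = 0.853) and rho -0.317 (exact p = 0.410, adjusted p = 0.615), while r was -0.644 without those libraries and 0.381 within groups. The r of the other 5 genes lay between -0.589 for Per1 and 0.327 for Npas2, and none passed. In the 6 libraries other than the high-muscle ones r was -0.989 for Per3 and -0.926 for Per2, with adjusted exact p values of 0.05 and 0.0563, which do not pass. On log2 TPM the relation with Per2 no longer passed either (r = -0.703, exact p adjusted to 0.146). All points share a library's depth and scaling.

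**Figure D5:**
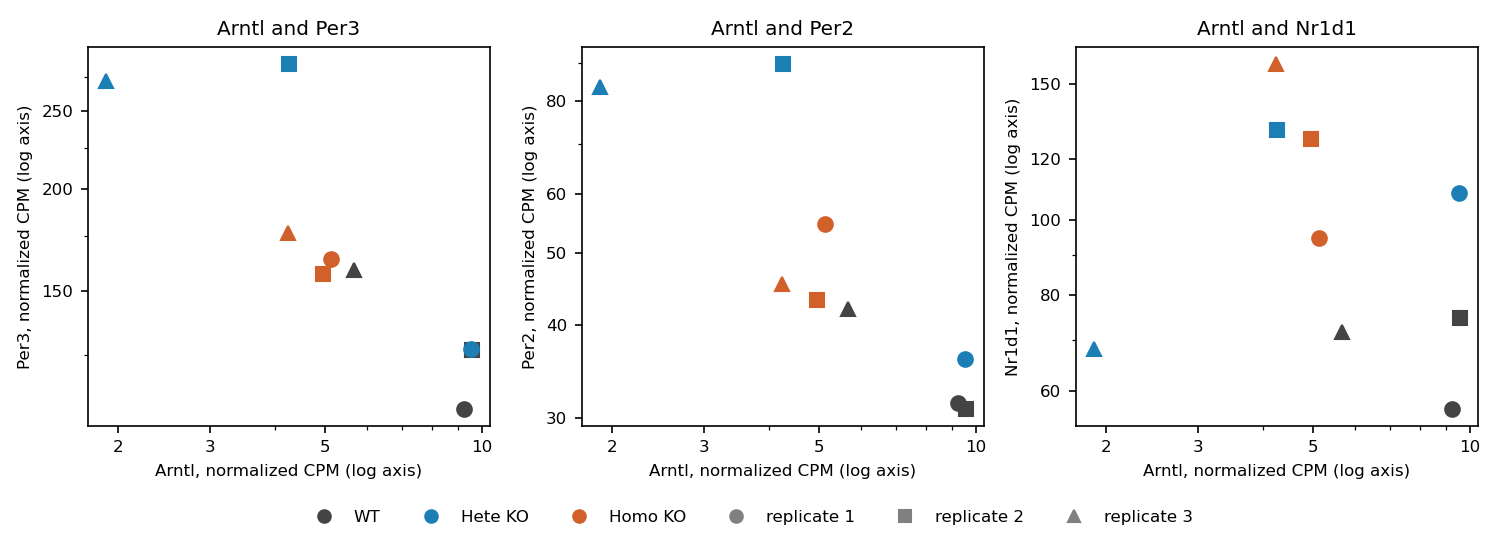
Arntl (horizontal axis) against Per3, Per2 and Nr1d1 (vertical axes) in the 9 libraries, in normalized CPM on log axes. Per3 and Per2 are lower where Arntl is higher, from Hete KO 3 at 1.90 CPM of Arntl to WT 2 at 9.54, and the r with Nr1d1 is -0.162.

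The deposited transcripts split each gene further. Per2 (99.5% of the gene's counts in Per2-201), Nr1d1 (97.0% in Nr1d1-201), Cry1 (95.8% in Cry1-201), Cry2 (89.3% in Cry2-201) and Nr1d2 (86.2% in Nr1d2-201) rested on 1 coding transcript each. Clock was spread over Clock-205, Clock-201 and Clock-204, with 37.1, 31.7 and 22%. Of Per3, 40.5% lay in the coding Per3-201 and 30.6% in Per3-205, annotated as a retained intron. The rest lay in Per3-203 (12.6%, nonsense-mediated decay), Per3-202 (8.3%, retained intron) and Per3-204 (8.0%, processed transcript). On average most of its total is thus not coding mRNA by annotation. The span of Per3 also overlaps that of Camta1 on the same strand, over 41014 bases, and Camta1 had a mean of 262.2 estimated counts. Arntl-201 held 55.0% on average but between 10 and 79.6% in single libraries, and Per1-201 57.5% with a range of 22.1 to 68.5%. At the low counts of Arntl these shares were not read as differences between groups.

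Other genes of the pathway were taken from lists. Of 11 further clock transcription factors, 0 passed in Homo KO against WT, in Hete KO against WT and in Homo KO against Hete KO, and 1, Nfil3, passed with both KO groups against WT, by edgeR. At an unadjusted p under 0.05 there were 3, 6, 0 and 4 of them in these comparisons, and DESeq2 called 1, 3, 0 and 3 (Nfil3, then Ciart and Hlf besides). Over all genes, edgeR called 0, 0.417, 0 and 2.34%, and 16.4, 21.9, 5.44 and 22.6% had an unadjusted p under 0.05. DESeq2 called 3.47, 9.08, 0.0223 and 9.7% of the genes it tested. Nfil3, a repressor that competes for D-boxes, fell from 4.34, 5.81 and 3.85 CPM (WT 1, 2, 3) to 1.48, 2.74 and 2.09 (Hete KO 1, 2, 3) and 2.40, 1.57 and 1.36 (Homo KO 1, 2, 3). Each of the 6 KO libraries was lower than each WT library, and the difference was -1.27 on the log2 scale (SE 0.275, edgeR adjusted p = 0.0477). The call ended when any 1 library other than Hete KO 1 was left out (edgeR adjusted p between 0.0512 without Hete KO 2 and 0.199 without WT 2), and without the high-muscle (0.34) or high-liver (0.463) libraries, while the log2 fold change stayed between -1.40 and -1.07 over the single libraries left out. It also ended under upper-quartile normalization (0.0507), by limma on log2 TPM (0.118 and 0.13 with its pseudocounts) and with the covariates (0.274, log2 fold change -0.94). Hlf, a PAR-bZIP activator of D-boxes, did not pass, with 20.4, 19.2 and 24.9 CPM (WT 1, 2, 3), 27.4, 61.9 and 56.2 (Hete KO 1, 2, 3) and 29.1, 36.1 and 42.8 (Homo KO 1, 2, 3) (log2 fold change 0.96 with both KO groups against WT, SE 0.246, edgeR adjusted p = 0.0669). Its highest libraries, Hete KO 2 and Hete KO 3, were those of Per3. A link of Nfil3 or Hlf to the level of Per3 was not tested. Ciart, a repressor of the ARNTL and CLOCK pair, had a log2 fold change of 1.15 (SE 0.311, edgeR adjusted p = 0.0742) in the same comparison, also without passing.

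The kinases and ubiquitin ligases that set the stability of PER and CRY proteins were also listed. Of 10 such genes 0 passed by edgeR or DESeq2 in any of the 4 comparisons, with 1, 1, 0 and 1 at an unadjusted p under 0.05 (16.4, 21.9, 5.44 and 22.6% of all genes). Their median log2 fold changes were 0.09 in Homo KO and 0.09 in Hete KO against WT, beside -0.01 and 0.02 over all genes. Btrc, a ligase subunit that targets PER proteins, had the smallest p with both KO groups against WT (log2 fold change 0.38, edgeR adjusted p = 0.0962). Of 8 output enzymes and regulators, 0 passed by edgeR, and 3, 3, 2 and 3 had an unadjusted p under 0.05 in the same order of comparisons, beside the same shares of all genes. DESeq2 called 1, 2, 0 and 3 (3.47, 9.08, 0.0223 and 9.7% of the genes it tested). Nampt, which makes NAD from nicotinamide, measured 84.8, 59.4 and 82.8 CPM (WT 1, 2, 3), then 85.4, 174 and 165 (Hete KO 1, 2, 3), then 82.1, 92.2 and 107 (Homo KO 1, 2, 3). Hete KO 2 and Hete KO 3 were again the highest pair, and the log2 fold change in Hete KO against WT was 0.90 (SE 0.252, edgeR adjusted p = 0.0961). Por, which encodes the electron donor of cytochrome P450 enzymes, had 0.66 there (edgeR adjusted p = 0.0865, DESeq2 adjusted p = 0.00456). In Homo KO against WT it had 0.61 (edgeR adjusted p = 0.197, DESeq2 adjusted p = 0.0234). Usp2 was lower in Homo KO, with log2 fold changes of -1.41 against WT (SE 0.534, edgeR adjusted p = 0.250) and -1.61 against Hete KO (edgeR adjusted p = 0.899). In neither did its groups overlap (22.1 and 11.4% of all genes), and its highest libraries were the high-muscle ones. In Homo KO against WT 4 of the list lay above and 4 below 0, and in Hete KO against WT 8 above (49.3 and 51.4% of all genes).

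Lists for signals that reset clocks outside the brain were also read. Of 8 glucocorticoid-induced genes, 0 passed by edgeR in the comparisons of 2 groups. There 3, 2 and 2 had an unadjusted p under 0.05 (16.4, 21.9 and 5.44% of all genes), and DESeq2 called 2, 2 and 0 (3.47, 9.08 and 0.0223% of the genes it tested). Mt2, a metallothionein gene, passed with both KO groups against WT, falling from 21.4, 19.4 and 26.1 CPM (WT 1, 2, 3) to 6.16, 10.2 and 13.7 (Hete KO 1, 2, 3) and 6.98, 5.09 and 6.41 (Homo KO 1, 2, 3) (log2 fold change -1.50, SE 0.222, edgeR adjusted p = 0.0265). The call ended without WT 2 (adjusted p = 0.136), WT 3 (0.0609), Hete KO 3 (0.0587), Homo KO 1 (0.0534), Homo KO 2 (0.108) or Homo KO 3 (0.0875), and without the high-muscle (0.0984) or high-liver (0.395) libraries, by limma (0.0715 and 0.0724) and with the covariates (0.126). With both KO groups against WT, 4 genes of the list lay above and 4 below 0. There edgeR called 1 (2.34% of all genes), and 3 had an unadjusted p under 0.05 (22.6% of all genes). DESeq2 called 3 (9.7% of the genes it tested), namely Klf9, Mt2 and Sgk1. Sgk1 was lower in the KO groups, with a log2 fold change against WT of -0.75 in Homo KO (edgeR adjusted p = 0.188, DESeq2 adjusted p = 0.0215) and -0.33 in Hete KO (edgeR adjusted p = 0.382). Klf9, induced by glucocorticoids and rhythmic in many tissues, was at 197, 339 and 318 CPM in Hete KO 1, 2 and 3 against 190, 151.5 and 149.6 in WT, with a log2 fold change of 0.80 (SE 0.195, edgeR adjusted p = 0.0750). In Homo KO 1, 2 and 3 Klf9 was at 221, 215 and 249 CPM, also above WT (log2 fold change 0.48, edgeR adjusted p = 0.269). Of 8 temperature-responsive genes 0 passed by edgeR, with 2, 1, 0 and 2 at an unadjusted p under 0.05 (16.4, 21.9, 5.44 and 22.6% of all genes). DESeq2 called 1, 0, 0 and 1 of them (3.47, 9.08, 0.0223 and 9.7% of the genes it tested), each time Hsph1. Against WT, 7 of them lay below 0 in Homo KO and in Hete KO, while 49.3 and 51.4% of all genes lay above 0. Hsph1, a heat shock chaperone, was at -0.47 (edgeR adjusted p = 0.162) and -0.30 (edgeR adjusted p = 0.158). Cirbp, which encodes a cold-inducible RNA-binding protein, lay on the other side in both (0.59 and 0.35).

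The genes most like Arntl over the 9 libraries were sought among 14303 others of at least 1 CPM, by the Pearson correlation of log2 CPM, as a description. The highest were Sft2d1 (0.970), Gpm6a (0.962), Spcs2 (0.953), Ddx41 (0.941) and Tspyl3 (0.939). The most opposed were Gstt3 (-0.970), Vps37a (-0.945), Poglut1 (-0.926), Zfp760 (-0.926) and Fam214a (-0.924). Gstt3, a glutathione S-transferase gene, was highest in Hete KO 3, where Arntl was lowest, at 4.24 log2 CPM against 2.87 in WT 2. These are the ends of 14303 values, picked as such, and the other clock members were left out of the search.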

How the data were processed

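Fat from 9 mice was sequenced by the submitters and quantified per transcript. Per the file headers, the deposited tables hold estimated counts (expected counts), which are not normalized. Per the file headers, they also hold TPM, which the authors scaled to effective length and library total. The submitters' processing notes name mm10, and the quantifier is not given in the sources used here. Transcripts were joined to GENCODE M21 genes by identifier (98.38% matched), summed, and rounded to whole numbers. All 9 libraries entered 1 fit by edgeR 4.0.16 in R 4.3.3 (TMM, quasi-likelihood F-test, prior count 0.125 for fold changes and 2 for log2 levels, two-sided). Benjamini-Hochberg adjustment covered every gene tested (threshold 0.05). DESeq2 1.42.0, limma 3.58.1, other filters and scalings, a replicate block and fits without single libraries were alternatives. CPM are TMM-normalized. High-muscle libraries had over 1% and high-liver libraries over 0.1% of counts in those markers. Activator and repressor values used log2(TPM + 0.1). Beyond the WT animals being littermates, nothing says how the animals of a group were bred or their libraries prepared. Litters are not given and could not enter the fit, so p values measure the spread between these libraries. On simulated counts for Homo KO against WT (17669 genes), edgeR recovered 34% of 2-fold and 88% of 4-fold changes, with 5 false calls. No libraries of a group agreed within sampling noise. Members, lists and tests were chosen with earlier results of these data known. Named pathway genes are those past the threshold and up to 3 per list with the smallest p. Genes like Arntl are the 5 at each end, without members and predicted genes. Joins, exact permutations and plots used pandas 2.3.3, scipy 1.17.1 and matplotlib 3.10.9 under Python 3.11.15. Promoter windows are those of RefSeq.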

Additional observations from a re-analysis of the deposited data

How the results depend on the processing

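The calls of clock genes depended on the tool: DESeq2 called 1, 2, 0 and 2 of them in Homo KO against WT, Hete KO against WT, Homo KO against Hete KO and both KO groups against WT, where edgeR called 0. Npas2, at 5 to 27 counts per library, is limited by depth. Leaving out each library gave 0 clock genes in all cases in Homo KO against WT and Homo KO against Hete KO, and 0 to 3 in each of the other comparisons. Over all genes the counts then ran from 0 to 153 (Homo KO against WT, 0 with all libraries), 0 to 958 (Hete KO against WT, 75) and 2 to 1095 (both KO groups, 421). In Homo KO against WT, DESeq2 called 640 genes, no filter 1, the fit of the compared groups 7, and the fits without the high-muscle and without the high-liver libraries 41 and 2. In Hete KO against WT these gave 1584, 258, 0, 11 and 1, limma on either TPM scale 0, the shares of muscle and liver markers as covariates 0 and the replicate block 248. With both KO groups they gave 1788, 759, 102 and 2 (no fit of compared groups differs there), limma 12 and 6 and the covariates 0, and DESeq2 called 4 in Homo KO against Hete KO. The correlations of Arntl past the threshold went from 2 to 1 on log2 TPM and to 0 without the high-muscle libraries, where r turned to 0.157 for Cry2 and 0.345 for Nr1d1.

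Of 825 fold changes of clock genes under the alternatives, 765 were counted as keeping direction and side of the threshold, 11 passed and 49 turned, all of them of genes that did not pass. Directions were read on values rounded to 2 decimals, and a value of 0.00 was counted as keeping direction. Clock (-0.003) and Cry2 (0) in Hete KO against WT are such cases, so their turns given below are not among the 49. The cause of the turns was not tested. For Homo KO against WT, Clock turned to -0.31 without the high-liver libraries and -0.58 with the covariates, and Npas2 to -0.31 and -0.63 by limma (pseudocounts 0.5 and 0.1), -0.36 without the high-liver libraries and -0.20 with the covariates. Per1 turned to -0.072 and -0.073 by limma, and Cry2 to 0.025 by both, 0.23 without the high-liver libraries and 0.17 with the covariates. In Hete KO against WT, Arntl turned to 0.032 without the high-muscle libraries and Npas2 to -0.054 and -0.067 by limma. In Homo KO against Hete KO, Arntl turned to 0.085 and 0.146 by limma, 0.076 with the replicate block and 0.17 with the covariates, Clock to -0.10 without the high-muscle libraries and -0.32 with the covariates, Cry2 to 0.058 and 0.059 by limma, and Nr1d2 to 0.112 without the high-muscle libraries and 0.053 with the covariates. With both KO groups, Clock turned to -0.34 without the high-liver libraries and -0.42 with the covariates, Npas2 to -0.18 and -0.35 by limma and -0.15 without the high-liver libraries, and Cry2 to 0.27 and 0.17 under those same settings as Clock. Over the single libraries left out, the values that turned ran as follows. In Homo KO against WT they were -0.135 to 0.315 (Clock), -0.294 to 0.554 (Npas2), -0.102 to 0.129 (Per1) and -0.204 to 0.006 (Cry2). In Hete KO against WT they were -0.201 to 0.249 (Clock), -0.101 to 0.983 (Npas2), -0.314 to 0.099 (Cry1) and -0.112 to 0.096 (Cry2). In Homo KO against Hete KO they were -0.544 to 0.609 (Arntl), -0.089 to 0.242 (Clock), -0.911 to 0.288 (Npas2) and -0.294 to 0.123 (Nr1d2), and with both KO groups -0.168 to 0.282 (Clock) and -0.158 to 0.051 (Cry2). The fits with 1 WT library left assume that it varies like the other groups. A filter of 1 CPM in 3 libraries left no value for Npas2. Same-numbered libraries deviated together in 3 of 9 pairs (correlation over 0.1, range -0.07 to 0.46), and 5 of 9 libraries correlated best with their own number, so the numbers were not taken as pairs; the block changed no call of a clock gene and ended that of Nfil3 (edgeR adjusted p = 0.0568).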
